A study of Mus musculus with 12 samples.

Results

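Glut1 transgenic and wild-type (WT) cardiomyocytes of the Tnnt2high population were compared in all autosomal genes of the deposited read counts. The Tnnt2high cells were those sorted for lower Mitotracker signal, and their libraries were chosen by that label alone: 4 from Glut1 transgenic hearts and 2 from WT hearts, so 6 of the 12 libraries of the series. After the 5 summary rows that name no gene were dropped, the files held 22947 autosomal genes, of which 11774 had enough reads to be tested. The other 478 tested genes, 413 on the X or Y chromosome and 65 without a chromosome in the annotation, entered the fit but are not counted here.

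The series was RNA sequencing of cells sorted from mouse hearts on a CD1 background at postnatal day 1. The transgenic hearts carried a human GLUT1 cDNA under the αMHC promoter, which is active in cardiomyocytes, together with an αMHC-Cre transgene and a Cre-dependent YFP reporter in the R26 locus. The WT hearts lacked the GLUT1 transgene. By the description of the sort they carried the same Cre and reporter, so both genotypes share them. Cells were gated on YFP and on Mitotracker, a dye that accumulates in mitochondria. In the study the cells of lower Mitotracker signal corresponded to those of higher cardiac troponin T (Tnnt2high), and the cells of higher signal to Tnnt2low. Each transgenic replicate was 1 heart. The labels of both WT replicates begin with the same heart number, so they may come from 1 heart, and n = 2 counts WT libraries rather than hearts known to be separate.

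GLUT1 is a facilitative transporter that lets glucose cross the plasma membrane down its gradient. It is prominent in the fetal heart and is largely replaced by the insulin-responsive carrier GLUT4 (Slc2a4) as cardiomyocytes mature after birth. Inside the cell, glucose feeds glycolysis, glycogen, the pentose phosphate pathway and nucleotide synthesis. Glucose phosphates are also sensed by the transcription factors MondoA and ChREBP, whose best known targets are the arrestin-domain proteins Txnip and Arrdc4. Cardiomyocytes still divide at birth and leave the cell cycle during the first postnatal week.

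The libraries held 4065306 to 7483520 reads in genes. Tnnt2, which encodes cardiac troponin T, stood at 16086 to 20830 CPM (reads of the gene scaled to an equal library size) in the transgenic libraries, and at 16254 and 17201 CPM in the WT libraries. In the higher gate the transgenic libraries averaged 13420 ± 632 CPM (SD, n = 4) and the WT libraries stood at 15741 and 16730 CPM, so the WT libraries of the 2 gates differed little in the transcript that names the population. Genes of the sarcomere summed to 180355 to 194729 CPM over the 6 libraries, so heart muscle RNA was abundant in each. The transgenic libraries held more reads outside annotated exons, at 2.26 to 2.63 for each read in a gene against 1.83 and 1.51 in the WT libraries. Transgenic replicates 2 and 4 expressed Y-linked genes and read as male, and the other 4 libraries read as female. With the 2 female transgenic hearts alone against WT, the median of the G2 and M list described below was -0.69 in place of -0.84, and the log2 fold change of Slc2a1 was 1.36 in place of 1.60. The part of sex and of reads outside exons in the results was not tested further.

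WT replicate 2 stood apart from its label. Across 7693 genes its profile was closest to the same-numbered WT library of higher Mitotracker signal, with a Pearson correlation of 0.975 between log2 levels. Against the other WT library of its own gate the correlation was 0.929. Each library was also placed on a line between the mean of the 4 transgenic libraries of lower signal, set at 0%, and the mean of the 4 of higher signal, set at 100%. The line rested on 2335 genes that did not overlap between those 2 transgenic populations. WT values entered their choice only through the filters on level, which used all 12 libraries. The transgenic libraries set both the genes and the ends of the line. Their positions are therefore held near 0% or 100% by construction, and those of the WT libraries are not. WT replicate 1 of the lower gate stood at 20.8%, and transgenic replicate 4 at 17.8%. WT replicate 2 stood at 62.1%, and its partner of the higher gate at 68.1%, so this pair lay close together on the line. What set WT replicate 2 apart was not tested. Values from the fit that leaves it out therefore stand beside the main ones for many of the lists and genes. Where no such value is given, the result rests on both WT libraries.

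**Figure D1:**
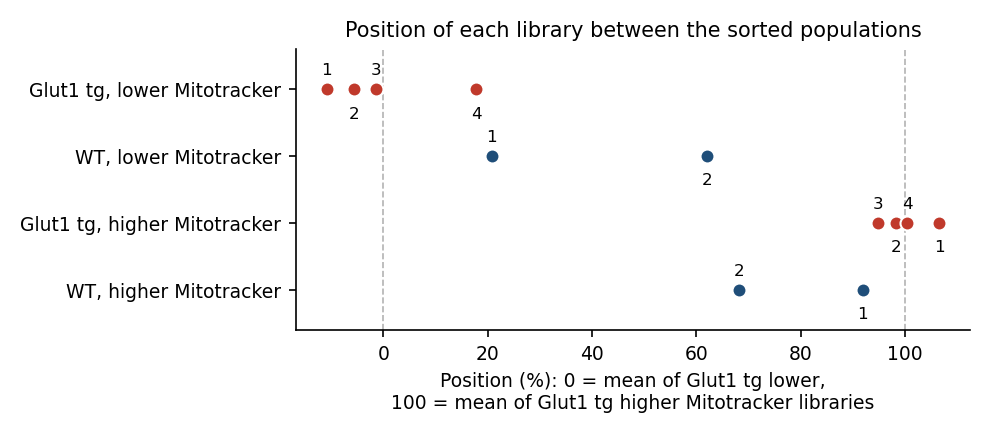
Each point is 1 library, numbered by replicate, and the x axis is its position in percent on the line from the mean of the Glut1 transgenic (tg) libraries of lower Mitotracker signal (0) to the mean of those of higher signal (100). WT replicate 2 of the lower gate lay at 62.1% and WT replicate 1 at 20.8%. The transgenic libraries of that gate, which helped to set the line, lay between -10.8% and 17.8%.

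The first comparison asked which genes differed between Glut1 transgenic and WT cells of lower Mitotracker signal. No autosomal gene passed an adjusted p under 0.05 with a change over 1.5-fold in edgeR's quasi-likelihood test, which is 0 of 11774 genes (0%). At an unadjusted p under 0.05, 243 genes (2.06%) were higher and 373 (3.17%) lower in the transgenic cells. Those 2 shares are the background for the list counts below from the fit with both WT libraries. In 691 genes (5.87%) every transgenic library lay above both WT libraries, and in 721 (6.12%) every one lay below them. DESeq2 on the same 12 libraries passed 4 genes, Btf3, Slc2a3, Tnrc6c and Myl12a, and on the 6 libraries alone 6 genes, Ptma, Rpsa, Btf3, Myl12a, Fam60a and Slc2a1. Ptma was named after its values were seen. With so few calls, the text below gives values and says which differences lay beyond the libraries of the other genotype.

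Of the glucose transporter genes, Slc2a1 and Slc2a3 were higher in every transgenic library than in both WT libraries. Slc2a1, the mouse gene of GLUT1 (chr4:119108711-119137983, plus strand), stood at 73.9, 92.5, 33.5 and 53.9 CPM in transgenic replicates 1 to 4, and at 28.9 and 13.3 CPM in WT replicates 1 and 2. The lowest transgenic library, replicate 3, came close to WT replicate 1. The log2 fold change was 1.60 (standard error (SE) 0.42, edgeR adjusted p = 0.899), with an exact two-sided permutation p of 0.0667, the smallest that 4 against 2 libraries allow. Without WT replicate 2 the log2 fold change was 1.14, and without WT replicate 1 it was 2.24. Whether these reads came from the mouse gene or from the similar human cDNA of the transgene cannot be told apart in counts per gene.

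Slc2a3 encodes GLUT3, a transporter of high affinity that is best known from neurons and the embryo, and lies at chr6:122727809-122801640 on the minus strand. It stood at 26.4, 49.6, 11.9 and 18.98 CPM in the transgenic libraries, which is 131, 181, 48 and 80 reads. WT replicate 1 had 0 reads and WT replicate 2 had 16 reads, or 2.15 CPM. The gene was thus present in every transgenic library and at or near 0 in both WT libraries. The fitted log2 fold change was 4.44 (SE 0.83, edgeR adjusted p = 0.543). Set against a floor of 3 reads, the transgenic mean was at least 43.7-fold higher than WT replicate 1, and it was 12.4-fold higher than WT replicate 2. DESeq2 on 12 libraries gave an adjusted p of 0.0023 for it. Only 2.60% of the 30-base words of Slc2a3 transcripts, and 2.12% of those of Slc2a1, occur in another mouse gene.

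Slc2a4, the gene of GLUT4, did not follow them. Its transgenic libraries stood at 85.4, 103, 134 and 102 CPM and its WT libraries at 125 and 98.9 CPM, and the genotypes overlapped. The log2 fold change of -0.07 (SE 0.20, edgeR adjusted p = 0.993) turned to 0.10 without WT replicate 1. Of the 11 facilitative transporter genes on the list, 6 were tested. Of these, Slc2a1, Slc2a3 and Slc2a10 had an unadjusted p under 0.05 and a higher level, and none had a lower one. Over all tested genes the shares were 2.06% and 3.17%. Slc2a10 had 1, 8, 11 and 0 reads in the transgenic libraries and 0 reads in both WT libraries, too few to give a fold. It had enough reads to be tested only through transgenic libraries of this gate. Its place among the higher genes was thus fixed by that choice, and it adds nothing to the count. Slc2a8 and Slc2a12 had log2 fold changes of 0.00 and 0.07. In cells of higher Mitotracker signal, whose libraries come from the same hearts, the log2 fold changes were 1.75 for Slc2a1, 2.81 for Slc2a3 and -0.28 for Slc2a4, and the difference between the gates had an adjusted p of 0.961 to 0.997 from edgeR for these genes.

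**Figure D2:**
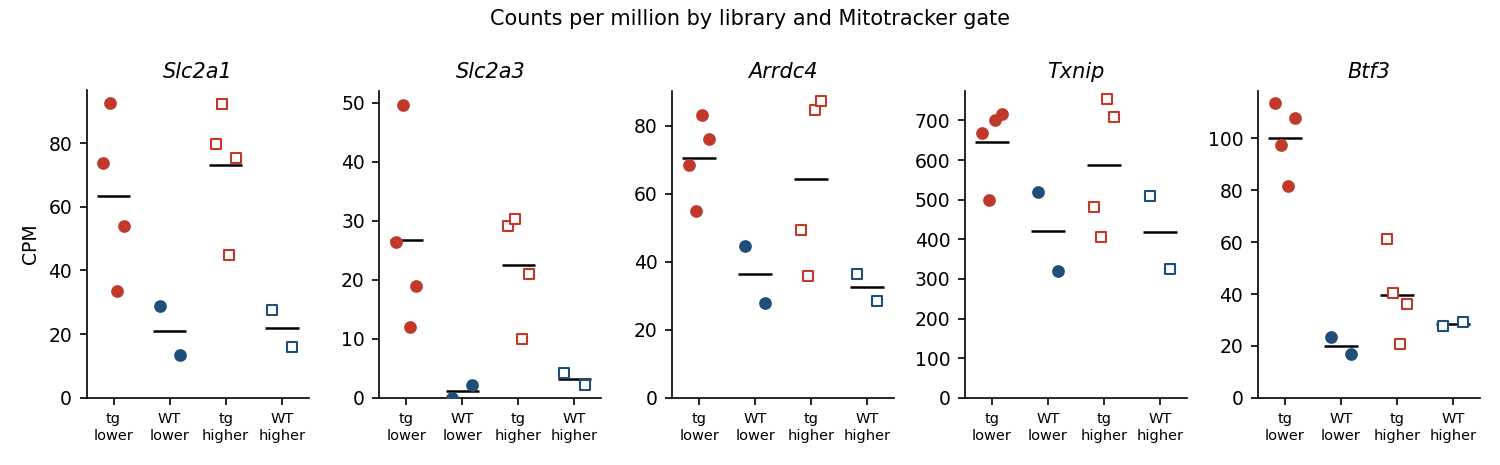
Each point is the CPM of 1 library, with filled circles for the lower and open squares for the higher Mitotracker gate and black lines for group means (4 transgenic, 2 WT libraries per gate). In the lower gate Slc2a1, Slc2a3, Arrdc4 and Btf3 were above both WT libraries in every transgenic library, while transgenic replicate 2 at 500.0 CPM of Txnip lay below WT replicate 1 at 519.7 CPM.

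Among glucose-responsive genes, Arrdc4 and Txnip had the smallest p-values. Their promoters are shown because both genes are known targets of the glucose sensors MondoA and ChREBP, which bind paired E-box-like sites. The 250 bases before each start come from RefSeq (GRCm38.p6), at chr3:96557707-96557956 on the plus strand for Txnip and chr7:68749239-68749488 on the minus strand for Arrdc4, written 5′ to 3′. Capitals mark the paired motif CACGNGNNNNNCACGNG or the E-box CACGTG, each searched on both strands.
Txnip: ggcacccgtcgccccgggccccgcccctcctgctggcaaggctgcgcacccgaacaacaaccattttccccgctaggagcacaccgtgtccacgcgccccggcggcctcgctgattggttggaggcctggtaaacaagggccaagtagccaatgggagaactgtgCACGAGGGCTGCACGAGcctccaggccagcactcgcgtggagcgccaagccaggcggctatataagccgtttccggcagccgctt
Arrdc4: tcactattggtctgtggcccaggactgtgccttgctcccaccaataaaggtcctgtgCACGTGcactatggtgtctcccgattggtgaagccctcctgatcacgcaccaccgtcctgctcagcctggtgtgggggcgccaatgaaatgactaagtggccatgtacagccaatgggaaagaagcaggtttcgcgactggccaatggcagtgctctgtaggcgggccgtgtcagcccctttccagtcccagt
The Txnip window held the paired motif, 85 to 69 bases before the start, which 15 of 32851 such windows (0.0457%) hold. The Arrdc4 window held the single E-box, 193 to 188 bases before the start, which 6.02% of the windows hold. A match describes these letters only and does not show binding.

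Arrdc4, an arrestin-domain protein that lowers glucose uptake, stood at 68.4, 54.8, 83.1 and 75.9 CPM in the transgenic libraries and at 44.6 and 28.0 CPM in the WT libraries. Its genotypes did not overlap, and the log2 fold change was 0.96 (SE 0.33, edgeR adjusted p = 0.899). It was 0.67 without WT replicate 2. Txnip, which inhibits thioredoxin and promotes the removal of GLUT1 from the membrane, stood at 668, 500.0, 701 and 716 CPM against 519.7 and 321 CPM. Here transgenic replicate 2 lay between the WT libraries, and the log2 fold change of 0.62 (SE 0.27, edgeR adjusted p = 0.899) became 0.32 without WT replicate 2. The other 14 tested genes of this list, among them the lipogenic enzymes Fasn and Acaca and the factors Mlxip and Mlxipl themselves, had unadjusted p-values above 0.05. The list's median log2 fold change was -0.14, against -0.01 over all tested genes. It turned to 0.11 without WT replicate 2, against 0.02 over all tested genes in that fit.

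The 12 genes of smallest p on each side, among those whose libraries did not overlap and with at least 10 CPM in 1 genotype, covered several unrelated functions. The smallest p was that of Btf3, a subunit of the complex that shields newly made proteins at the ribosome (chr13:98309896-98317006). Its transgenic libraries stood at 114, 97.5, 81.6 and 108 CPM and its WT libraries at 23.4 and 16.7 CPM, a log2 fold change of 2.33 (SE 0.34, edgeR adjusted p = 0.0796) that was 2.10 without WT replicate 2. In the higher Mitotracker gate its log2 fold change was 0.48. However, 44.3% of the 30-base words of its transcripts occur in other genes, so the count is uncertain.

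Myl12a, a regulatory light chain of nonmuscle myosin, stood at 264, 363, 305 and 314 CPM against 159 and 156 CPM, a log2 fold change of 0.98 (SE 0.23) that was 0.97 without WT replicate 2. It shares 23.0% of its words with other genes. Lgals1, the secreted lectin galectin-1, had narrow groups at 166, 180, 187 and 169 CPM against 132 and 109 CPM. Its log2 fold change was 0.54 here, 0.42 without WT replicate 2 and -0.44 in the higher gate, and DESeq2 on 12 libraries passed the difference between the gates for Lgals1. The actin-binding Twf2 (0.70), the ribonuclease P subunit Rpp21 (1.11), the retinoic acid receptor Rarb (0.90), the vesicle-tethering Trappc6b (0.75), the calcium-binding Tesc (0.78), the endoplasmic reticulum co-chaperone Dnajc3 (0.81) and the ribosomal protein gene Rps10 (1.54) completed the higher side, with log2 fold changes as given. Without WT replicate 2 their log2 fold changes lay between 0.57 for Twf2 and 2.70 for Rps10. The counts of Rarb and Rps10 are uncertain, with 35.8% and 26.2% of their words shared.

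On the lower side, Tnrc6c, a GW182 protein of microRNA silencing, stood at 38.1, 30.1, 21.8 and 45.1 CPM in transgenic and 66.0 and 78.0 CPM in WT libraries. Its log2 fold change was -1.09 (SE 0.22, edgeR adjusted p = 0.735) and -0.96 without WT replicate 2. Fam60a, a subunit of the Sin3 histone deacetylase complex, had 3, 12, 3 and 5 reads in transgenic against 75 and 151 reads in WT libraries, a log2 fold change of -3.64 that was -3.41 without WT replicate 2, but 36.0% of its words occur elsewhere. Kifc1, a minus-end kinesin of the mitotic spindle, stood at 8.88, 6.57, 9.17 and 3.32 CPM against 17.3 and 18.4 CPM, a log2 fold change of -1.35 that was -1.30 without WT replicate 2. Its count is uncertain as well, since 58.4% of its words occur in other genes. Among the remaining genes were the lipid-transfer genes Osbpl5 (-0.96) and Atg2a (-0.80), Elmod3 (-1.04), the Rab activator Dennd5b (-0.68) and Bahcc1 (-0.78). Ttc28 (-0.67), the RNA-decay cofactor Ttc37 (-1.13), Auts2 (-0.65) and the tyrosine kinase Syk (-0.73) completed the lower side, with log2 fold changes in parentheses. In the fit without WT replicate 2 the log2 fold changes of these remaining genes lay between -0.47 for Bahcc1 and -1.23 for Ttc37. Bahcc1 and Syk had log2 fold changes of -0.47 and -0.51 without WT replicate 2 and no longer an unadjusted p under 0.05.

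**Figure D3:**
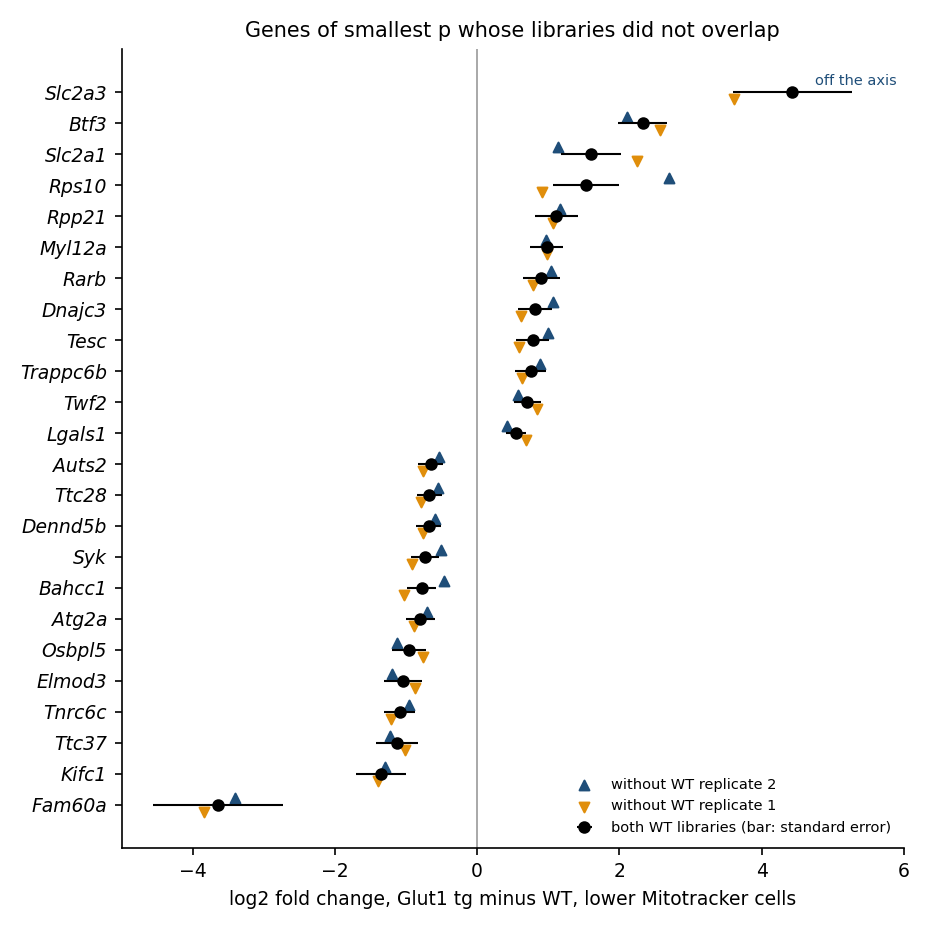
The x axis is the log2 fold change between Glut1 transgenic and WT cells of lower Mitotracker signal for the 12 genes on each side, with black points and standard errors from both WT libraries and triangles from the fits that leave out 1 WT library. All 24 genes kept their sign in both such fits, and the value of Slc2a3 without WT replicate 2 runs off the axis because WT replicate 1 had 0 reads.

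Genes of G2 and mitosis had lower values in the transgenic cells, and most of that difference rested on WT replicate 2. All 38 genes on the list had negative log2 fold changes, with a median of -0.84 against -0.01 over all tested genes. Of these, 14 had an unadjusted p under 0.05, all lower, against 3.17% of all tested genes. In 14 every transgenic library lay below both WT libraries, against 6.12% of all tested genes. No gene passed after adjustment. Without WT replicate 2 the median was -0.26, 12 of the 38 genes turned positive and 2 had an unadjusted p under 0.05, against 1.72% of all tested genes on the lower side. With WT replicate 1 left out instead, the median was -1.22 and 27 genes were lower at that threshold, against 4.99% of all tested genes.

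The mean log2 level of the list, relative to the 6 libraries, was -0.05, -0.34, -0.30 and -0.46 in the transgenic libraries and 0.15 and 1.00 in the WT libraries. WT replicate 1 was thus above all 4 transgenic libraries by a small margin, and WT replicate 2 stood at the level of its higher-gate partner, at 1.01. In the transgenic libraries of the higher gate the mean was 1.37, 1.60, 0.67 and 0.03. The list level thus differed between the gates as well, in the same direction as WT replicate 2 differed from the other libraries.

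Incenp, a scaffold of the chromosomal passenger complex, differed from both WT libraries alike. Its transgenic libraries stood at 22.6, 21.4, 25.8 and 24.7 CPM and its WT libraries at 45.02 and 47.8 CPM, and its log2 fold change was -0.97 (SE 0.27, edgeR adjusted p = 0.899) and -0.92 without WT replicate 2. Incenp and Kifc1 were the 2 genes on the list that kept an unadjusted p under 0.05 in that fit, and the count of Kifc1 is uncertain for its shared words. Mki67, the gene of the proliferation antigen Ki-67 (named after its values were seen), stood at 118, 95.3, 164 and 105 CPM against 154 and 408 CPM, so WT replicate 1 lay inside the transgenic range and WT replicate 2 far above it. Aspm, which organises spindle poles, stood at 14.7 to 23.6 CPM in the transgenic libraries, and at 30.8 and 42.4 CPM in the WT libraries. Knstrn, a kinetochore protein, stood at 14.4 to 22.2 CPM, and at 23.8 and 44.97 CPM. Both WT libraries were above the transgenic ones for each, and without WT replicate 2 the log2 fold changes went from -0.99 to -0.73 and from -1.03 to -0.49.

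S-phase genes had a slightly positive median with or without WT replicate 2, while few single genes passed the test. Of 36 tested genes, 29 had positive log2 fold changes and the median was 0.21. The median was 0.23 whichever WT library was left out, and 28 genes were positive without replicate 2. In that fit 1 gene, Chaf1a (named after its values were seen), was higher at an unadjusted p under 0.05 and none lower, a share near the 2.57% of all tested genes. With both WT libraries, 4 were higher and none lower at that threshold, against 2.06% and 3.17% of all tested genes. They were Mcm3, a subunit of the replicative helicase, and Prim1, the catalytic subunit of primase. The others were Cdt1, which loads the helicase, and Hells, a chromatin remodeler. Mcm3 stood at 77.9, 67.9, 76.9 and 84.2 CPM against 65.6 and 50.5 CPM, a log2 fold change of 0.41 (SE 0.18, edgeR adjusted p = 0.899) that was 0.23 without WT replicate 2. Prim1 stood at 23.2, 22.5, 29.3 and 21.1 CPM against 15.3 and 17.0 CPM, a log2 fold change of 0.57 that was 0.66 without WT replicate 2. Neither gene overlapped between genotypes. Cdt1 and Hells went from 0.50 to 0.35 and from 0.73 to 0.58 on the log2 scale without WT replicate 2, and none of the 4 kept an unadjusted p under 0.05. In the higher gate the list median was 0.41, with 7 genes higher and 1 lower at that threshold, against 0.892% and 1.15% of all tested genes. The 50 tested replication-dependent histone genes had a median of 0.24, with 1 lower and none higher. That gene, Hist1h2be, rested on WT replicate 2 at 100.4 CPM, where the other 5 libraries stood at 8.07 to 19.8 CPM, and its log2 fold change turned from -1.98 to 0.39 without it.

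**Figure D4:**
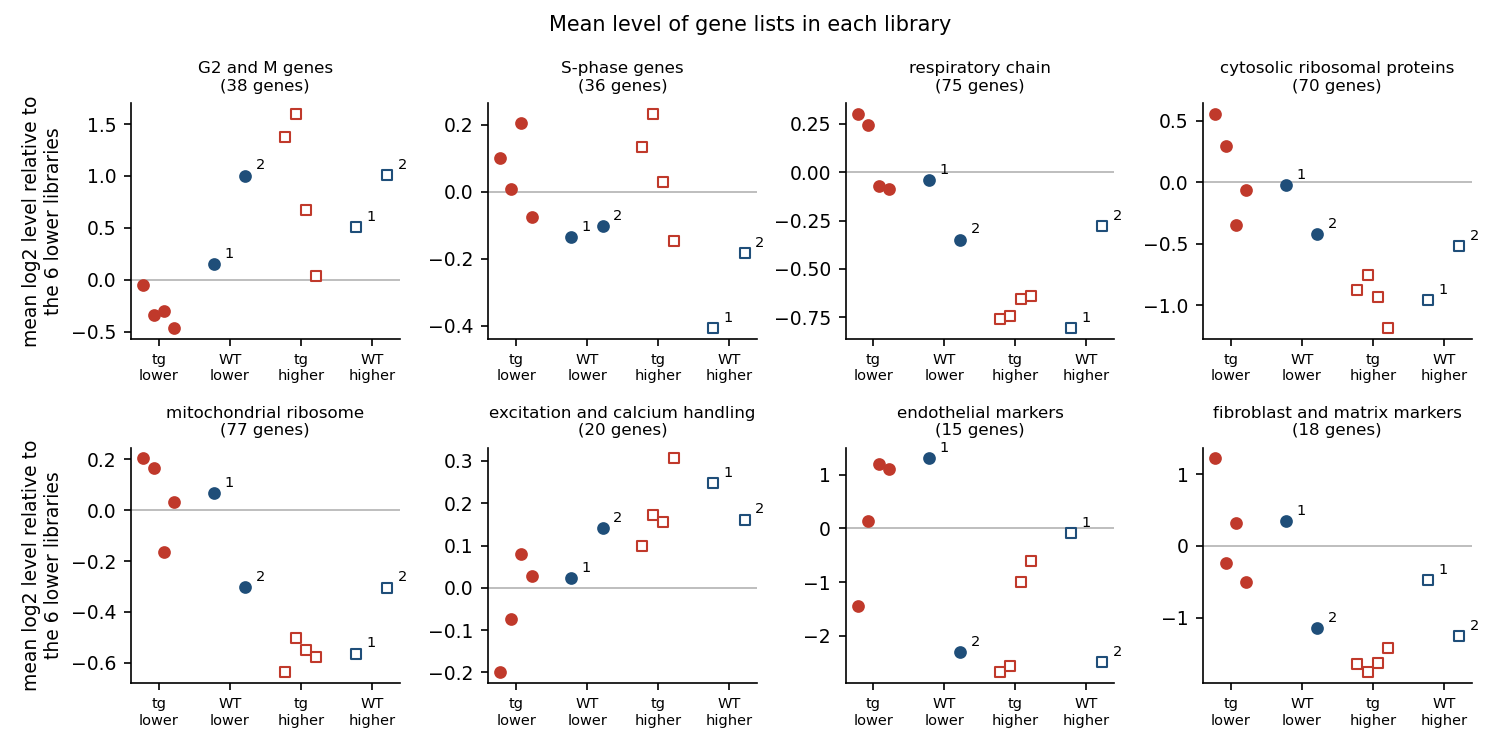
Each point is the mean log2 level of a gene list in 1 library, relative to the mean of the 6 libraries of lower Mitotracker signal, with filled circles for the lower and open squares for the higher gate and WT libraries numbered. WT replicate 2 of the lower gate stood beside its higher-gate partner in most panels, as for G2 and M genes at 1.00 and 1.01, while S-phase genes put 3 of 4 transgenic libraries above 0 and both WT libraries below it.

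Respiratory chain genes had slightly higher values in the transgenic cells, again by an amount that depended on the WT library. Of 75 tested subunits, 70 had positive log2 fold changes, with a median of 0.29. At an unadjusted p under 0.05, 14 were higher and 1 lower, against 2.06% and 3.17% of all tested genes. Leaving out WT replicate 2 gave a median of 0.14, with 66 positive, none higher at that threshold (2.57% over all tested genes) and 1 lower. Leaving out WT replicate 1 gave a median of 0.50, with 31 higher (2.9% over all tested genes) and 1 lower. The mean log2 level was 0.30, 0.25, -0.07 and -0.09 in the transgenic libraries and -0.04 and -0.35 in the WT libraries, so WT replicate 1 lay within the transgenic range. Ndufa11 and Ndufb6, subunits of complex I, had log2 fold changes of 0.51 and 0.57, and Ndufb6 stood at 177, 162, 158 and 138 CPM against 121 and 93.7 CPM. Their values without WT replicate 2 were 0.31 and 0.40. Uqcrb of complex III (0.69) and Cox6a2, the muscle form of a complex IV subunit (0.47), had log2 fold changes of 0.57 and 0.27 in that fit. Ndufb6 and Uqcrb share 34.6% and 35.3% of their words with other genes. Ndufb4 was the subunit on the lower side, at 150, 235, 28.5 and 29.4 CPM against 459 and 291 CPM, a log2 fold change of -1.76 that was -2.05 without WT replicate 2, with 19.1% of its words shared with other genes.

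Genes of the mitochondrial ribosome had a similar pattern. Of its 77 genes, 66 were positive with a median of 0.21. At an unadjusted p under 0.05, 8 were higher and none lower, against 2.06% and 3.17% of all tested genes. With WT replicate 2 left out, the median was 0.02 and no gene was under that threshold. Mrpl42 stood at 309, 343, 277 and 300 CPM against 233 and 217 CPM, and its log2 fold change of 0.45 was 0.40 without WT replicate 2. Mrpl36 (0.62), Mrpl18 (0.38) and Mrpl28 (0.36) had log2 fold changes of 0.54, 0.30 and 0.28 in that fit.

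Cytosolic ribosomal protein genes had a median of 0.27. At an unadjusted p under 0.05, 13 of 70 were higher and 1 lower, against 2.06% and 3.17% of all tested genes. The median was 0.09 without WT replicate 2, with 41 of the 70 genes positive. These genes have many processed pseudogenes, and only 1 of the 70 shares under 5% of its words with other genes, so their counts are uncertain. Rpsa, the laminin-receptor protein of the small subunit, stood at 1640, 1664, 1709 and 1460 CPM against 593 and 501 CPM, a log2 fold change of 1.57 that was 1.46 without WT replicate 2. Rps12 and Rpl19 varied within a genotype, with Rpl19 at 2.23 to 4.11 CPM in transgenic libraries, 3.67 CPM in WT replicate 1 and 82.9 CPM in WT replicate 2. The log2 fold change of Rpl19 went from -3.81 to -0.23 without WT replicate 2.

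Genes that use the glucose differed little in the fit with both WT libraries. None of 18 tested glycolytic genes had an unadjusted p under 0.05, and their median log2 fold change was 0.03. The median was -0.11 without WT replicate 2, with 4 of the 18 genes positive. Without WT replicate 1 it was 0.31, with 15 positive, so this list also depended on the WT library. Aldoa (aldolase A) stood at 2204 to 2600 CPM in the transgenic libraries and at 2614 and 1838 CPM in the WT libraries. Ldhb (lactate dehydrogenase B) stood at 1671 to 2361 CPM and at 1815 and 1561 CPM, and both genes had overlapping genotypes. Aldoa and Ldhb share 17.7% and 33.8% of their words with other genes. Eno1, at 0 to 0.61 CPM, was not tested. Of 18 glycogen genes 1 was higher and 1 lower. Ugp2, which makes UDP-glucose, stood at 220, 255, 213 and 212 CPM against 180 and 182 CPM, a log2 fold change of 0.32, and 0.33 without WT replicate 2, where its unadjusted p was 0.101. Gys1, the muscle glycogen synthase, stood at 144, 145, 145 and 183 CPM against 213 and 179 CPM, a log2 fold change of -0.35, and -0.46 without WT replicate 2.

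In the pentose phosphate pathway and nucleotide synthesis, 1 of 31 tested genes was higher and none lower at an unadjusted p under 0.05, with a median of 0.05. The gene was Taldo1 (transaldolase), at 125, 120, 130 and 133 CPM against 111 and 87.4 CPM. Its log2 fold change of 0.36 was 0.20 without WT replicate 2. The 8 tested genes of the polyol and hexosamine pathways and the 12 of pyruvate dehydrogenase and its control had no gene under that threshold, with medians of 0.04 and 0.02. Mgea5 and Sord of the former, and Dld and Pdhb of the latter, had overlapping genotypes. Sord and Pdhb share 36.2% and 18.5% of their words with other genes, so their counts are uncertain. Akr1b3 of the polyol and hexosamine list had 0 CPM in all 6 libraries and was not tested.

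Oxidation of fuels likewise showed single genes. Of 19 genes of the tricarboxylic acid cycle, Sdhd, a membrane anchor of succinate dehydrogenase, was the 1 with an unadjusted p under 0.05, at 703, 651, 510 and 540 CPM against 483 and 421 CPM (log2 fold change 0.41). Without WT replicate 2 its log2 fold change was 0.32, with an unadjusted p of 0.142. Of 32 fatty acid oxidation genes, 24 were positive with a median of 0.10, and 2 were higher and 2 lower. Eci1 (0.46) and Decr1 (0.37), which process double bonds of fatty acids, were higher. Cpt1a is the liver form of the enzyme that brings fatty acids to mitochondria. It stood at 114, 98.8, 128 and 124 CPM against 134 and 174 CPM (log2 fold change -0.40). Lpl (lipoprotein lipase) had a log2 fold change of -0.35. In the fit without WT replicate 2 the log2 fold changes of Eci1, Decr1, Cpt1a and Lpl were 0.29, 0.42, -0.19 and -0.16. Without WT replicate 2 none of these 4 kept an unadjusted p under 0.05.

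Contractile genes differed by small amounts. Of 25 sarcomere genes 1 had an unadjusted p under 0.05. Myh6, the α-myosin heavy chain whose promoter drives the transgene and the Cre, had 53316, 52663, 62956 and 61293 CPM in the transgenic libraries, all below 70082 and 64484 CPM in WT. Its log2 fold change was -0.23 (SE 0.10, edgeR adjusted p = 0.899) and -0.28 without WT replicate 2, and 29.8% of its words are shared with other genes. Myh7, the fetal β-myosin heavy chain, split the WT libraries at 1459 and 7108 CPM, with the transgenic libraries at 2350 to 6549 CPM, and its log2 fold change went from 0.28 to 1.84 without WT replicate 2. None of the 14 fetal-type and stress genes had an unadjusted p under 0.05, among them Tnni1, the fetal troponin I, with a log2 fold change of 0.29 that was 0.09 without WT replicate 2.

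Excitation and calcium handling genes were lower in 5 of 20, higher in none, at an unadjusted p under 0.05, against 3.17% and 2.06% of all tested genes. The list median was -0.13, and -0.02 without WT replicate 2. Atp2a2, the calcium pump of the sarcoplasmic reticulum, was below both WT libraries in every transgenic library, at 6589, 7260, 7253 and 7013 CPM against 7781 and 8374 CPM, a log2 fold change of -0.20 that was -0.14 without WT replicate 2. Jph2 (junctophilin) and Kcnh2, a potassium channel, had log2 fold changes of -0.46 and -0.32, which became -0.14 and -0.11 without WT replicate 2. No gene on the list had an unadjusted p under 0.05 in that fit. The atrial and ventricular lists, of 8 and 7 tested genes, had no gene under the threshold. Of these, Nppa, Myl4 and Myl3 overlapped between genotypes, and so did Myl2.

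Stress-response lists had medians near 0. Heat shock genes (18 tested, median -0.01) had no gene with an unadjusted p under 0.05, with Hsp90ab1 at 2793 to 2997 CPM in transgenic libraries and 3123 and 2964 CPM in WT libraries. Targets of hypoxia-inducible factor (18 tested, median 0.00) had 1 higher, the mitophagy receptor Bnip3l, with WT libraries at 22.2 and 61.9 CPM and transgenic libraries at 48.9 to 90.2 CPM. The log2 fold change of Bnip3l was 0.73, and it was 1.67 without WT replicate 2 and 0.18 without WT replicate 1, with 23.9% of its words shared. Immediate early genes (24 tested, median -0.00) had 1 higher, Egr2, at 0.24 to 7.93 CPM against 0.82 and 0.27 CPM, with a log2 fold change of 2.50 that was 1.87 without WT replicate 2. The nuclear RNA Malat1, at 9938 to 13192 CPM, lay above both WT libraries at 9339 and 6641 CPM, and its log2 fold change of 0.44 was 0.23 without WT replicate 2.

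Markers of other cells in the sort varied more between libraries than between genotypes. In bulk RNA, fewer cells of a type and less RNA per cell cannot be told apart. The 15 endothelial markers summed to 44.4, 152, 346 and 330 CPM in the transgenic libraries, 432 CPM in WT replicate 1 and 19.9 CPM in WT replicate 2. None had an unadjusted p under 0.05, and the median log2 fold change of 0.07 was -0.83 without WT replicate 2 and 3.46 without WT replicate 1. Cdh5 and Kdr, which define endothelium, stood at 107 and 90.6 CPM in WT replicate 1 against 4.58 and 4.04 CPM in WT replicate 2. The 19 fibroblast and matrix markers summed to 805 to 1948 CPM in the transgenic libraries and to 1306 and 643 CPM in the WT libraries. Their median log2 fold change of 0.64 was -0.10 without WT replicate 2.

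Of the fibroblast and matrix list Eln (elastin), the gene with the smallest p, stood at 57.1, 37.2, 13.1 and 68.1 CPM against 10.4 and 22.8 CPM, a log2 fold change of 1.39 here, 2.09 without WT replicate 2 and -2.11 in the higher gate. DESeq2 on 12 libraries passed that difference between the gates for Eln. Smooth muscle and pericyte markers (9 tested) had 1 lower, Abcc9, which cardiomyocytes also express as a subunit of their ATP-sensitive potassium channel, with a log2 fold change of -0.32 that was -0.25 without WT replicate 2. Leukocyte markers summed to 0 to 17.2 CPM and erythroid markers to 0 to 4.28 CPM over the 6 libraries. No reads were counted for the globin genes Hba-a1, Hba-a2, Hbb-bs, Hbb-bt and Hbb-y. Records with several alignments made up 33.1% to 40.9% of these libraries and stood outside the gene counts. The lack of globin counts therefore does not show that globin RNA was absent. Epicardial markers summed to 10.7 to 20.4 CPM, and neuronal and Schwann markers to 2.44 to 6.70 CPM. The part of these cells in the results above was not tested.

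Fold changes also followed transcript length. In the shortest of 5 equal bins of genes (70 to 2559 bases of exon) the median log2 fold change was 0.19, with 122 genes higher and 8 lower at an unadjusted p under 0.05. In the longest bin (7884 bases or more) it was -0.14, with 15 higher and 186 lower. The Spearman correlation of fold change with exon length was -0.27 over 11774 genes, which share the same 6 libraries. It was -0.09 without WT replicate 2 and -0.33 without WT replicate 1, and 0.12 in the higher gate. Short genes include most respiratory chain and ribosomal genes, and long ones include Tnrc6c and Auts2. After correction for length and GC content by an offset, the list medians became 0.17 for the respiratory chain, 0.16 for the mitochondrial ribosome, 0.00 or slightly below for excitation and calcium handling, and stayed at -0.79 for G2 and M genes and 0.21 for S-phase genes. The genes at an unadjusted p under 0.05 fell from 14 to 3 higher for the respiratory chain and from 5 to 2 lower for excitation and calcium handling. They went from 8 to 6 higher for the mitochondrial ribosome, from 4 to 3 higher for S-phase genes and from 14 to 12 lower for G2 and M genes. Over all tested genes 1.95% were higher and 1.85% lower in that fit.

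**Figure D5:**
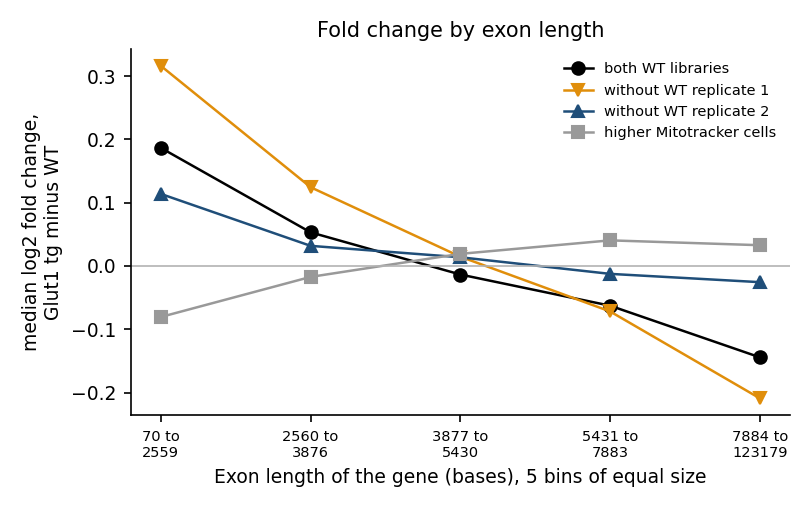
The y axis is the median log2 fold change between Glut1 transgenic and WT libraries and the x axis 5 equal bins of tested autosomal genes by exon length in bases. In the lower gate the median went from 0.19 to -0.14, and without WT replicate 2 from 0.11 to -0.03, while in the higher gate it went from -0.08 to 0.03.

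The second comparison asked whether the genotype difference itself differed between the lower and the higher Mitotracker gate. No autosomal gene passed an adjusted p under 0.05 for that difference in edgeR, with 255 genes (2.17%) above and 274 (2.33%) below 0 at an unadjusted p under 0.05. DESeq2 passed 5, Sumo2, Eln, Mir6236, Lgals1 and Kifc1, of which Sumo2 and Mir6236 were named after their values were seen. Kifc1, of uncertain count, had a log2 fold change of -1.35 in the lower gate and 0.95 in the higher gate. Btf3, at 2.33 and 0.48, differed by 1.84 on the log2 scale (adjusted p = 0.961 from edgeR).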

How the data were processed

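RNA was measured in 12 libraries of sorted mouse cardiomyocytes. Per the labels and the study's methods, the authors trimmed single-end reads (after FastQC, version not given in the sources used here), aligned them to mm10 with HISAT2 and counted reads over the union of exons with HTSeq, and they deposited raw read counts per gene. The strand setting and the handling of reads with several alignments were not stated. From these deposited counts all 12 libraries were fitted in edgeR 4.0.16 (R 4.3.3) with TMM scaling, a filter on low counts and 4 groups of genotype by gate, and p-values were adjusted by the Benjamini-Hochberg method over 12252 genes. A call needed an adjusted p under 0.05 and a change over 1.5-fold. CPM are scaled by the TMM library sizes.

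The members, lists and comparisons were chosen with earlier results of these data known. Named genes were 7 set genes (Slc2a1, Slc2a3, Slc2a4, Txnip, Arrdc4, Tnnt2 and Btf3), the 12 of smallest p per direction among those whose libraries did not overlap and with at least 10 CPM in 1 genotype, and up to 4 per direction with an unadjusted p under 0.05 in each of 32 gene lists, or the 2 of highest level where a list had none. Other genes named were chosen after their values were seen, and some items are not reported here. Symbols were matched to GENCODE vM21 (GRCm38) for 24046 of 24421 genes (98.5%), of which 670 went by an older symbol. Shared sequence is the percentage of 30-base words of a gene's transcripts found in another gene's. The fit was tested on simulated data with known changes. Alternatives were DESeq2 1.42.0, RLE scaling, no filter, sex, blocks, left-out libraries and, chosen after seeing the data, a length and GC offset. The placing of libraries between the gates was also chosen after seeing the data. Same-numbered libraries of the 2 gates come from 1 heart by their labels, with deviations correlated at 0.107 to 0.271. Transgenic and WT libraries of the same number come from different hearts by their labels and were not treated as pairs in the main fit. Since it is not stated that the WT libraries are separate hearts, p-values may measure technical spread. Permutation tests used log2(CPM + 0.5). Intervals and floors cover counting error only.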

Additional observations from a re-analysis of the deposited data

Results flagged for a closer look

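In each gene named in the text the 4 transgenic libraries were searched for 1 value far from the other 3 by Dixon's test, which chance alone passes in about 1 of 20 groups. Of 90 genes, 6 passed it. Gys1 stood at 183 CPM in replicate 4, against 144 to 145 CPM in the others. Uqcrb stood at 167 CPM in replicate 1, against 89.0 to 101 CPM. Rps12 stood at 12.9 CPM in replicate 3, against 1.37 to 2.14 CPM, and 30.1% of its words are shared with other genes, so its count is uncertain. Knstrn stood at 22.2 CPM in replicate 1, against 14.4 to 15.7 CPM, and Malat1 at 13192 CPM in replicate 2, against 9938 to 10347 CPM. Dbh, which makes noradrenaline and is the 1 tested neuronal marker, stood at 4.71 CPM in replicate 3, against 1.64 to 2.14 CPM. Each of the 4 replicates was the outlying one in at least 1 gene.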

How the results depend on the processing

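The count of genes changed in the lower Mitotracker cells, 0 in edgeR, was also 0 with RLE scaling, the robust fit, sex as a term, genes of shared sequence left out, the length and GC offset, and adjusted p alone. It was 11 without a filter, 3 in edgeR on the 6 libraries, 4 in DESeq2 on 12 and 6 in DESeq2 on 6 libraries, and 1 (Stmn1) in female hearts. Leaving out 1 library gave 0 to 1, the 1 being Btf3 without transgenic replicate 1 or 3 of the higher gate. With the replicate number as a block, 2 genes passed (Btf3 and Slc2a3), and with the heart as a random block 0. A fixed block of the heart cannot be fitted with genotype in the comparison of genotypes within a gate. For the difference between the gates it was not run, and the main fit takes the 2 libraries of a heart as independent. Same-numbered transgenic and WT libraries had deviations correlated at -0.182 and 0.118. The deviations of 2 WT libraries from their own mean mirror each other, so these values cannot decide whether the number is a pairing. For the difference between the gates the count was 7 without a filter and 5 in DESeq2, and 0 to 1 with a library left out. The log2 fold change of Slc2a1 passed without a filter (1.60, adjusted p = 0.0324) and in DESeq2 on 6 libraries (1.60, adjusted p = 0.0476). It was 1.14 to 2.24 with a library left out and 1.95 with the replicate number as a block. With a library left out, Slc2a4 ranged from -0.22 to 0.10 and reversed to 0.02 without transgenic replicate 1 and to 0.10 without WT replicate 1. Hist1h2be ranged from -2.83 to 0.39 and reversed to 0.39 without WT replicate 2. The cause of these shifts was not tested. Library totals of 4065306 to 7483520 reads limit the genes of few reads most, such as Slc2a10.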
